A study of Mus musculus with 18 samples.

Results

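Iron storage and transport were read from 10 genes in the corpus callosum of mice fed cuprizone (CPZ), with and without the microglial receptor TREM2. The genes are Fth1, Ftl1, Trf, Tfrc, Slc11a2, Slc11a1, Slc40a1, Hmox1, Ireb2 and Aco1. They were chosen by name, and a gene was measured where at least 1 probe set was annotated to its symbol or a synonym and to no other gene. By that rule 9 of the 10 were measured, by 136 probe sets, among 20406 genes on the arrays. Ftl1 had no probe set of its own, and 10 probe sets that it shares with Ftl2 are described separately. All 9 measured genes passed the filter on dim genes, which left 16324 genes to test.

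RNA of the caudal corpus callosum, a white matter tract, was amplified and hybridised to 18 microarrays, 1 sample each. The groups were 6 arrays of TREM2-/- mice (KO) at 12 weeks, 5 of wild-type mice (WT) at 12 weeks, 3 of KO mice at 6 weeks and 4 of WT mice at 6 weeks. All were C57BL/6 mice on a diet with 0.2% CPZ, a copper chelator that kills oligodendrocytes, so the WT groups were on the toxin too and no untreated array was used here. The labels call 6 and 12 weeks the stage, and their wording leaves it unclear whether that is the mouse's age or the time on the diet. The knockout removes Trem2 from every cell that would express it, so differences are not limited to microglia. Whether every array came from its own mouse is not stated, so p-values reflect how far these samples spread, and that spread may be technical.

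Iron enters most cells bound to transferrin, is held in a ferritin shell of heavy and light chains, and leaves through ferroportin. In white matter, oligodendrocytes hold much of the iron, and microglia take up iron when they clear myelin debris. The iron regulatory proteins bind the messages of ferritin, the transferrin receptor and ferroportin when iron is scarce, so much of this control acts on RNA stability and translation, and transcript levels show only a part of it.

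Trem2 itself averaged 5.27 ± 0.30 log2 units in KO at 12 weeks (SD, n = 6) and 7.36 ± 0.48 in WT at 12 weeks (n = 5). At 6 weeks it averaged 5.80 ± 0.34 in KO (n = 3) and 7.29 ± 0.83 in WT (n = 4), and the highest KO array, at 6.05, lay below the lowest WT array, at 6.44. Of 10 listed markers of myelinating oligodendrocytes, the cells of this tract, 9 were measured above the filter. Pairs of arrays correlated at Pearson r from 0.910 to 0.970 over all genes. KO replicate 2 and WT replicate 4 at 6 weeks stood apart, with the 2 lowest array weights (0.446 and 0.503), and values without one or both are given beside several results. Expression of Xist and Y-linked genes showed 3 female and 3 male arrays in KO at 12 weeks, 2 and 3 in WT at 12 weeks, 1 and 2 in KO at 6 weeks, and 2 and 2 in WT at 6 weeks. The 12-week samples stood in 2 consecutive runs in the deposit, whose meaning the labels do not give. The first run held KO replicates 1 to 3, all male, with WT replicates 1 and 2, both female. The second held KO replicates 4 to 6, all female, with WT replicates 3 to 5, all male. Within each genotype at 12 weeks, sex and run therefore cannot be told apart, and a genotype by sex effect cannot be told apart from a shift between runs shared by KO and WT. Within a run KO and WT arrays were of opposite sex, and within a sex they were of different runs. A KO minus WT difference within a run is thus also a difference of sex, and within a sex also a difference of run. The precision is limited by the number of arrays.

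Between genotypes the widest differences were in Slc40a1, the iron exporter, which averaged 1.80-fold more in KO than in WT at 12 weeks and 2.15-fold more at 6 weeks. Hmox1, which frees iron from heme, differed by −0.63 log2 units, KO minus WT, at 12 weeks, and Tfrc, the uptake receptor, by −0.63 at 6 weeks. Between stages the widest difference was in Trf, the iron carrier, which was 3.08-fold lower at 12 than at 6 weeks in WT. The differences of Fth1, the ferritin heavy chain, between KO and WT were −0.02 at 12 weeks and −0.10 at 6 weeks. None of the 9 iron genes passed the test in any comparison (limma, p adjusted over all genes tested, threshold 0.05), these included, and none did in any of 1246 alternative values. Between KO and WT, 2 of 9 had an unadjusted p under 0.05 at 12 weeks, where 0.441% of all genes passed the adjusted test and 11.1% had an unadjusted p under 0.05. At 6 weeks 2 of 9 did as well, where 0.0429% and 5.44% of all genes did. Between 12 and 6 weeks, 0 of 9 had an unadjusted p under 0.05 in KO (0.00613% of all genes passed the adjusted test and 7.5% the unadjusted one) and 2 of 9 did in WT (0.0184% and 8.48%). For the difference between the genotype effects at the 2 stages, the count was 0 of 9 (0% and 5.2%). The median difference over the 9 genes, KO minus WT, was −0.02 at 12 weeks and −0.32 at 6 weeks, against 0.02 and −0.00 over all genes tested. The median size of the difference was 0.20 at 12 weeks and 0.41 at 6 weeks, against 0.19 at both stages over all genes tested. Group values of the 9 genes overlapped in every KO to WT comparison, where 2.47% of all genes at 12 weeks and 5.09% at 6 weeks did not overlap.

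**Figure D1:**
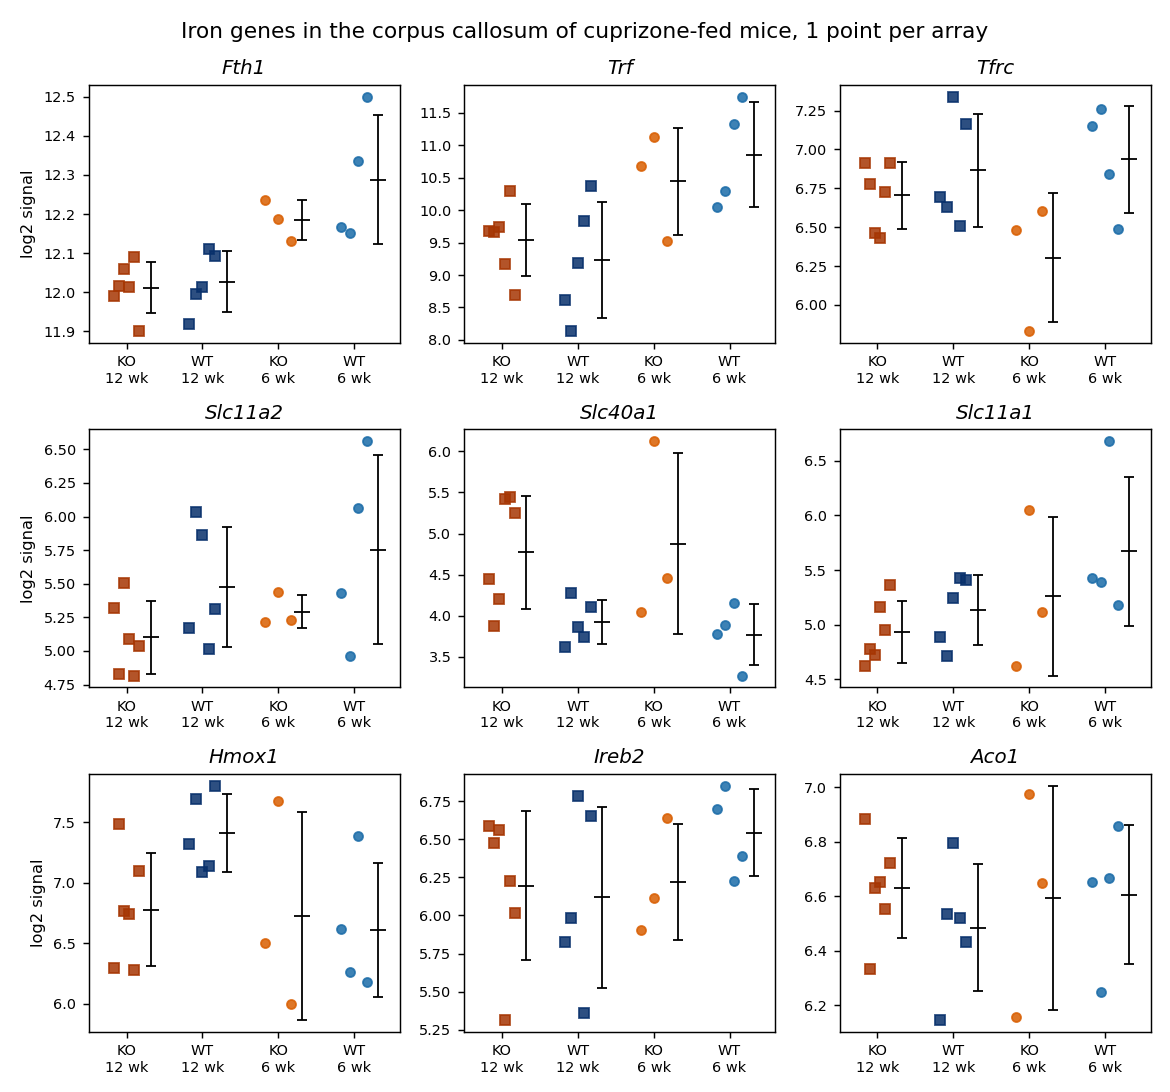
Log2 signal of each measured iron gene (vertical axis, own scale per panel) for every array of the 4 groups (horizontal axis), with the group mean and SD beside the points. In Fth1 the 12-week arrays lie at or below 12.11 and the 6-week arrays at or above 12.13, while in Slc40a1 the highest arrays are all KO.

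The promoters of the ferritin chains and of the transferrin receptor are shown here because these genes hold the storage and uptake results described next. RefSeq (GRCm38.p6) gave windows for 6 of the 10 genes, 8 in all, and each window is the 250 bases before an annotated start, on the gene's strand. Capitals mark CCAAT, or ATTGG where it lies on the opposite strand. Fth1 lies on chromosome 19 (window chr19:9982396-9982645, + strand), Ftl1 on chromosome 7 (chr7:45459887-45460136, − strand) and Tfrc on chromosome 16 (chr16:32608646-32608895, + strand).
Fth1: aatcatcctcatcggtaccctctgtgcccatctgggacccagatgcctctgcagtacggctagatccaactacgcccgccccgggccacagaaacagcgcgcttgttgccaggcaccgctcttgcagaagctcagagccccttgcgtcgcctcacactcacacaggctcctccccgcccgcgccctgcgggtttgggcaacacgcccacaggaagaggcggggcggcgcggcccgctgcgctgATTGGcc
Ftl1: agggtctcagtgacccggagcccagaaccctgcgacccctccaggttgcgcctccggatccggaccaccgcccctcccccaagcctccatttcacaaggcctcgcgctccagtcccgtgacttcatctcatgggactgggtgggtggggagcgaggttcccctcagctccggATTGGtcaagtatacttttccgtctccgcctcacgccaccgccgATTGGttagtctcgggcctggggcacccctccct
Tfrc: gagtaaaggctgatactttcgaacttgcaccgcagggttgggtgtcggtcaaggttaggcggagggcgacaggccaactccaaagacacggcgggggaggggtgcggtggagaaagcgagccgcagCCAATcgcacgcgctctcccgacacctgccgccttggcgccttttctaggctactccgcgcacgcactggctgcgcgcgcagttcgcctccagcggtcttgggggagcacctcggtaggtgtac
Fth1 and Tfrc have a pair of windows each, and those shown are the ones that hold CCAAT. The other Fth1 window (chr19:9980350-9980599) and the other Tfrc window (chr16:32608872-32609121) hold none. The Fth1 window shown holds CCAAT on the opposite strand, 7 to 3 bases before its start. The Ftl1 window holds it on the opposite strand as well, at 78 to 74 and at 34 to 30 bases before the start. In the Tfrc window shown it is on the gene's strand, 124 to 120 bases before the start. CCAAT was in 3 of the 8 windows, of 3 genes, and in 33.85% of 32851 such windows of all genes. The antioxidant response core TGACNNNGC, searched on both strands, was in 0 of the 8 windows and in 10.16% of all windows. These matches are descriptions of the sequence. Trf, Hmox1, Slc40a1 and Slc11a2 are named only.

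Fth1 encodes the heavy chain of ferritin, which oxidises iron as it enters the shell. In KO at 12 weeks its 6 arrays had a lowest value of 11.90, a median of 12.01 and a highest value of 12.09. The WT arrays at 12 weeks had 11.92, 12.00, 12.01, 12.11 and 12.09. At 6 weeks the values were 12.24, 12.19 and 12.13 in KO and 12.17, 12.15, 12.34 and 12.50 in WT. Every 12-week array therefore lay below every 6-week array of its own genotype, and KO and WT overlapped at both stages.

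The Fth1 difference between 12 and 6 weeks was −0.17 ± 0.14 in KO (SE, limma adjusted p = 0.801) and −0.26 ± 0.13 in WT (unadjusted p = 0.0663, adjusted p = 0.618). Stage groups did not overlap for 3.9% of all genes in KO and 2.49% in WT. Of all genes tested, 1.62% lay wholly lower at 12 weeks in KO, 1.31% did in WT, and 9 genes, 0.0551%, did in both. This lack of overlap was noticed in the values. It was seen in the median over 6 probe sets, of which 4 were lower at 12 weeks in KO and 5 in WT. Of the 20 genes with a mean level of at least 12, 10 were lower at 12 weeks in KO and 6 in WT. Between KO and WT, Fth1 differed by −0.02 ± 0.12 at 12 weeks (adjusted p = 0.973) and by −0.10 ± 0.15 at 6 weeks (adjusted p = 0.999). The 95% intervals of these differences were −0.27 to 0.24 and −0.42 to 0.22.

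Ftl1 encodes the light chain, which aids the forming of the iron core. The 10 probe sets shared with Ftl2 cannot separate the 2 genes, 2 of them repeat the values of another, and their median level was not tested. It averaged 11.13 ± 0.21 in KO (lowest 10.71, median 11.20, highest 11.28) and 10.75 ± 0.29 in WT (SD, n = 6 and 5) at 12 weeks. The WT arrays at 12 weeks had 10.49, 10.42, 10.79, 11.01 and 11.04, so that the lowest KO array lay among them. At 6 weeks it averaged 11.09 ± 0.46 in KO (10.75, 11.61 and 10.90) and 10.86 ± 0.42 in WT (10.56, 10.54, 11.43 and 10.92). KO exceeded WT by 0.38 at 12 weeks, in 10 of 10 probe sets, and by 0.23 at 6 weeks, in 7 of 10, with overlapping groups at both stages. The probe sets not higher at 6 weeks were those with the same repeated values, so only 8 of the 10 are distinct. They were also the brightest, and differed by −0.003 at 6 weeks and 0.085 at 12 weeks.

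Trf encodes transferrin, the iron carrier of plasma and brain fluids, which oligodendrocytes and the choroid plexus also make. In KO at 12 weeks its lowest, median and highest arrays had 8.70, 9.68 and 10.30. The WT arrays at 12 weeks had 8.62, 8.14, 9.19, 9.84 and 10.38. At 6 weeks the values were 10.68, 11.13 and 9.53 in KO and 10.06, 10.30, 11.32 and 11.75 in WT. The 12-week arrays were mostly the lower ones, and the stages overlapped in both genotypes.

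Trf had the largest stage difference of the 9 genes, −1.62 ± 0.45 in WT, which is 3.08-fold lower at 12 weeks (95% interval −2.56 to −0.69, unadjusted p = 0.00173, limma adjusted p = 0.284). It ranked 96 of 16324 genes by p in that comparison. In KO the difference was −0.90 ± 0.47 (adjusted p = 0.678). All 17 of its probe sets were lower at 12 weeks in each genotype. Without single arrays the WT value ran from −1.91 to −1.33, and the KO value from −1.36 to −0.56. Female WT arrays averaged 11.54 at 6 weeks and 8.38 at 12 weeks (n = 2 each). Male WT arrays averaged 10.18 and 9.80 (n = 2 and 3), so the WT stage difference was mostly in the females. In KO the averages were 9.53 (n = 1) and 9.39 in females and 10.90 and 9.70 in males. At 12 weeks sex and run cannot be told apart within a genotype. Between KO and WT, Trf differed by 0.31 ± 0.40 at 12 weeks (adjusted p = 0.811) and by −0.41 ± 0.51 at 6 weeks (adjusted p = 0.999). Leaving out single arrays gave 0.04 to 0.60 at 12 weeks, lowest without WT replicate 2 and highest without WT replicate 5, and −0.75 to 0.05 at 6 weeks, lowest without KO replicate 2 and highest without KO replicate 3. Within runs at 12 weeks the difference was −0.41 in the second and 1.32 in the first, which held 3 male KO and 2 female WT arrays. In both runs KO and WT were of opposite sex. The stage effects of the 2 genotypes differed by 0.72 ± 0.65, with an adjusted p of 0.963.

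Myelin transcripts moved with both genes. A score was formed as the mean of the centred log2 values of 9 markers of myelinating oligodendrocytes. It ran from −1.18 to 0.72 in KO at 12 weeks, −1.39 to 0.28 in WT at 12 weeks, −0.52 to 1.24 in KO at 6 weeks and 0.09 to 2.16 in WT at 6 weeks. All 9 markers were lower at 12 than at 6 weeks in KO (median −0.89) and in WT (median −1.70), and none passed the adjusted test (limma, 0 of 9 unadjusted in KO and 8 of 9 in WT). Markers of the choroid plexus, which also makes transferrin, were lower at 12 than at 6 weeks in 7 of 7 in WT (median −1.34, none passed with limma, 2 with an unadjusted p under 0.05) and in 3 of 7 in KO (median 0.08). Their score ran from −0.82 to 1.27 in KO at 12 weeks, −1.16 to 0.45 in WT at 12 weeks, −0.48 to 0.63 in KO at 6 weeks and −0.56 to 2.92 in WT at 6 weeks. The highest of these, WT replicate 4 at 6 weeks, stood alone, and the other WT arrays at 6 weeks, at −0.04, −0.56 and −0.04, lay within the range of WT at 12 weeks. In RNA of whole tissue, fewer cells of a type and less RNA per cell cannot be told apart.

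Across the 18 arrays, Trf correlated with the myelin score at Pearson r = 0.954 and Spearman rho = 0.961 (permutation p = 1e-05 for both, the smallest 100000 permutations can give, and 0.00036 after adjustment over 72 relations). Without the 2 arrays farthest from the median score r was 0.928, and for deviations from group means it was 0.936. Within KO arrays r was 0.935 (n = 9, exact permutation p = 0.00027) and within WT arrays 0.978 (n = 9, exact permutation p = 6.889e-05). Within 6 weeks r was 0.981 and within 12 weeks 0.880. Fth1 correlated with the same score at r = 0.895 and rho = 0.854, with the same permutation p, and at 0.794 without the 2 farthest arrays. Within KO it was 0.722 (n = 9, exact permutation p = 0.0288) and within WT 0.964. At 6 weeks the Fth1 value of 0.865 became 0.547 without the 2 farthest arrays, and at 12 weeks it was 0.791. The arrays share their groups and stages, and the part of oligodendrocyte and choroid plexus transcripts in the Trf and Fth1 differences was not tested.

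**Figure D2:**
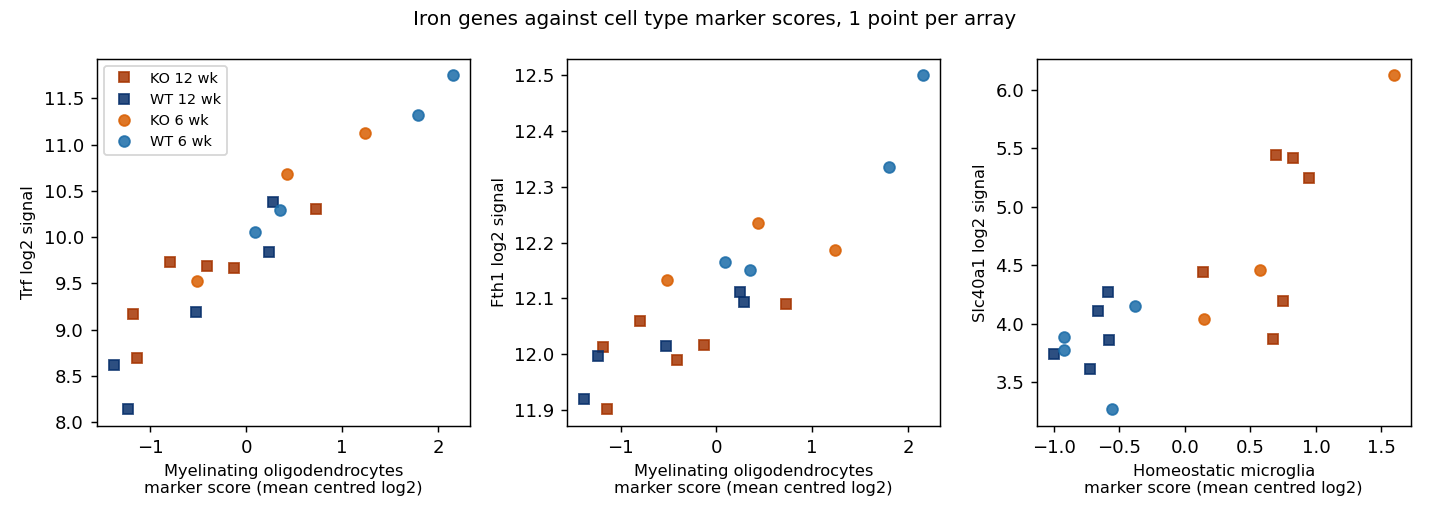
Log2 signal of Trf and Fth1 against the mean centred log2 level of 9 oligodendrocyte markers, and of Slc40a1 against 9 homeostatic microglia markers, with 1 point per array coloured by group. Trf and Fth1 lie along a rising band (r = 0.954 and 0.895), and in the last panel KO and WT arrays fall on different sides of the marker score.

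Tfrc encodes the transferrin receptor, which brings transferrin-bound iron into cells. The KO arrays at 12 weeks had a lowest value of 6.43, a median of 6.75 and a highest value of 6.92. The WT arrays at 12 weeks had 6.70, 6.63, 7.34, 6.51 and 7.16. The 6-week values were 6.48, 5.83 and 6.60 in KO and 7.15, 7.26, 6.84 and 6.49 in WT. Only 1 WT array at 6 weeks, the lowest, lay within the range of the KO arrays. KO differed from WT by −0.63 ± 0.25 at 6 weeks (unadjusted p = 0.0205, adjusted p = 0.812), and all 18 probe sets were lower in KO. The difference was −0.40 without KO replicate 2. It was −0.33 with the brightest probe set and −0.74 with the mean of the probe sets. Among male arrays it was −1.05, and among female arrays, with 1 KO array, −0.065. At 12 weeks it was −0.16 ± 0.20 (adjusted p = 0.795), and 15 of 18 probe sets were lower in KO. Between stages it was 0.40 ± 0.23 in KO (adjusted p = 0.717) and −0.07 ± 0.22 in WT (adjusted p = 0.948), and the KO value was 0.16 without KO replicate 2 at 6 weeks.

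Slc11a2 encodes DMT1, which carries iron out of endosomes into the cytosol. Its KO arrays at 12 weeks had a lowest value of 4.82, a median of 5.06 and a highest value of 5.51, and the WT arrays had 5.17, 6.04, 5.86, 5.01 and 5.31. Arrays of 6 weeks had 5.21, 5.44 and 5.23 in KO and 5.43, 4.96, 6.06 and 6.56 in WT. The WT arrays were the more spread out, and the groups overlapped at both stages. KO differed from WT by −0.38 ± 0.25 at 12 weeks (adjusted p = 0.603) and by −0.46 ± 0.32 at 6 weeks (adjusted p = 0.999), with 15 and 14 of 19 probe sets lower in KO. The 6-week value was −0.26 without both arrays of lowest weight, −0.19 without WT replicate 4, −0.73 without WT replicate 2 (unadjusted p = 0.0256) and −0.74 with the mean of the probe sets (unadjusted p = 0.0156, limma adjusted p = 0.696).

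Slc11a1 encodes NRAMP1, which in macrophages can move iron out of the phagosome, and whether it does so in these mice was not measured. Its KO arrays at 12 weeks had a lowest value of 4.62, a median of 4.87 and a highest value of 5.36, and the WT arrays had 4.89, 4.71, 5.25, 5.43 and 5.41. Values at 6 weeks were 4.62, 6.05 and 5.11 in KO and 5.43, 5.39, 6.68 and 5.18 in WT. KO replicate 2 and WT replicate 3 were far above the other arrays of their groups. KO differed from WT by −0.20 ± 0.27 at 12 weeks (adjusted p = 0.813) and by −0.41 ± 0.34 at 6 weeks (adjusted p = 0.999). The 6-week difference was −0.80 without KO replicate 2, −0.97 (unadjusted p = 0.0125, adjusted p = 1.00) without both arrays of lowest weight, −0.09 without KO replicate 1 and −0.07 without WT replicate 3. At 12 weeks it was 0.35 among female arrays and −0.65 among male arrays, and the genotype by sex term, 1.01 ± 0.29, had an unadjusted p of 0.00436 and an adjusted p of 0.450 (limma). In that fit 1314 of 16324 genes had an unadjusted p under 0.05. Within runs the KO minus WT difference was −0.21 in the second and −0.09 in the first. Both genotypes were higher in the second run, at 5.16 against 4.71 in the first in KO and 5.36 against 4.80 in WT, which cannot be told apart from the sex term.

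Slc40a1 encodes ferroportin, the only known exporter of iron from cells. In KO at 12 weeks its 6 arrays had 4.44, 3.87, 4.20, 5.42, 5.45 and 5.24, against 3.61, 4.27, 3.86, 3.74 and 4.11 in the 5 WT arrays. At 6 weeks the KO arrays had 4.05, 6.12 and 4.46, against 3.78, 3.88, 4.15 and 3.27 in WT. At 12 weeks KO replicates 4 to 6 lay above every WT array and replicates 1 to 3 lay among them or, for replicate 1, just above them. At 6 weeks KO replicate 2 lay far above all others, and the lowest KO array was below the highest WT array.

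The KO minus WT difference of Slc40a1 was 0.85 ± 0.34 at 12 weeks, or 1.80-fold (95% interval 0.14 to 1.56, unadjusted p = 0.0207, limma adjusted p = 0.352). At 6 weeks it was 1.11 ± 0.43, or 2.15-fold (95% interval 0.22 to 2.00, unadjusted p = 0.0176, adjusted p = 0.779). All 9 probe sets were higher in KO at both stages, by 0.21 to 1.85 at 12 weeks and by 0.42 to 2.03 at 6 weeks. At 6 weeks the value was 0.48 without KO replicate 2 and 0.32 without both arrays of lowest weight. At 12 weeks leaving out single arrays gave values from 0.72 to 1.03. The lowest adjusted p of any alternative was 0.0634, at 12 weeks with the mean of the probe sets.

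The 3 KO arrays at 12 weeks that were high in Slc40a1 were all female and all of the second run. The difference in Slc40a1 was 1.43 among female and 0.27 among male arrays, and 1.47 in the second run and 0.23 in the first. The genotype by sex term was 1.16 ± 0.35 (unadjusted p = 0.00593, limma adjusted p = 0.476). Of all 16324 genes tested, 1 passed that test and 1314 had an unadjusted p under 0.05. Sex and a shift between runs cannot be told apart in this term. By run, Slc40a1 averaged 5.37 in the second and 4.17 in the first in KO, and 3.90 in the second and 3.94 in the first in WT. Its 6-week difference was 0.75 among female arrays, with 1 KO array, and 1.26 among male arrays.

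Markers of microglia and astrocytes were mostly higher in KO as well. Of all genes, 0.441% passed the test between KO and WT at 12 weeks and 0.0429% at 6 weeks, where 5.44% had an unadjusted p under 0.05. Of 9 measured markers of homeostatic microglia, 9 were higher in KO at 12 weeks (median 1.38, 5 passed the test) and 8 at 6 weeks (median 1.59, 3 passed). Their score ran from 0.14 to 0.95 in KO at 12 weeks, −1.0 to −0.58 in WT at 12 weeks, 0.15 to 1.59 in KO at 6 weeks and −0.92 to −0.38 in WT at 6 weeks. KO and WT scores did not overlap, so a correlation over all arrays holds the genotype difference too. Over the 18 arrays Slc40a1 correlated with the score at r = 0.8035 (permutation p = 3e-05, 0.00072 after adjustment over 72 relations). For deviations from group means r was 0.672. Within KO, Slc40a1 correlated with the score at r = 0.751 (n = 9, exact permutation p = 0.0155, 0.0256 after adjustment over 20 relations) and rho = 0.633 (exact permutation p = 0.0760), and at 0.578 without the 2 farthest arrays. These 20 relations were chosen after the 72 were seen, and the adjustment does not count that choice. The permutations within a genotype also mixed arrays of both stages. Within WT r was 0.240 (n = 9, exact permutation p = 0.539). Of 8 general myeloid markers, 7 were higher in KO at each stage, with medians of 0.98 at 12 weeks (2 passed) and 0.86 at 6 weeks (0 passed with limma, 5 with an unadjusted p under 0.05). Their score ran from 0.05 to 0.64 in KO at 12 weeks, −0.94 to −0.09 in WT at 12 weeks, 0.14 to 1.31 in KO at 6 weeks and −0.98 to 0.78 in WT at 6 weeks. Slc40a1 correlated with this score at r = 0.724 within KO (n = 9, exact permutation p = 0.0166) and 0.653 within WT (n = 9, exact permutation p = 0.0592), with rho of 0.483 and 0.567, and at 0.257 and 0.506 without the 2 farthest arrays. Of 7 astrocyte markers, 7 were higher in KO at 12 weeks (median 0.54, 1 passed) and 6 at 6 weeks (median 0.59, none passed with limma, 5 with an unadjusted p under 0.05). Their score ran from 0.02 to 0.34 in KO at 12 weeks, −0.59 to −0.28 in WT at 12 weeks, 0.10 to 0.74 in KO at 6 weeks and −0.30 to 0.31 in WT at 6 weeks. Within KO the correlation of Slc40a1 with the astrocyte score was 0.435 (n = 9, exact permutation p = 0.246) and within WT 0.182 (n = 9, exact permutation p = 0.632), with rho of 0.217 and −0.067, and without the 2 farthest arrays it was −0.295 and −0.869. Of 6 border macrophage and monocyte markers, 4 were higher in KO at 12 weeks (median 0.49, 1 passed). At 6 weeks 5 were (median 0.51, 0 passed). Of 7 brain endothelium markers, 6 were higher at 12 weeks (median 0.57) and 4 at 6 weeks (median 0.24), and 0 passed. Slc40a1 correlated with the border macrophage score at r = 0.572 over all arrays (0.2855 for deviations from group means). With the endothelial score the values were 0.295 and −0.042. Such relations were not particular to Slc40a1. For deviations from group means, Slc11a1 had r of 0.860, 0.871 and 0.673 with the general myeloid, astrocyte and homeostatic microglia scores. For Hmox1 the same values were 0.819, 0.670 and 0.653. Over all arrays they were 0.369, 0.268 and −0.053 for Slc11a1 and 0.214, −0.065 and −0.019 for Hmox1. The part of these cell types in the differences of Slc40a1, Slc11a1 and Hmox1 was not tested.

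**Figure D3:**
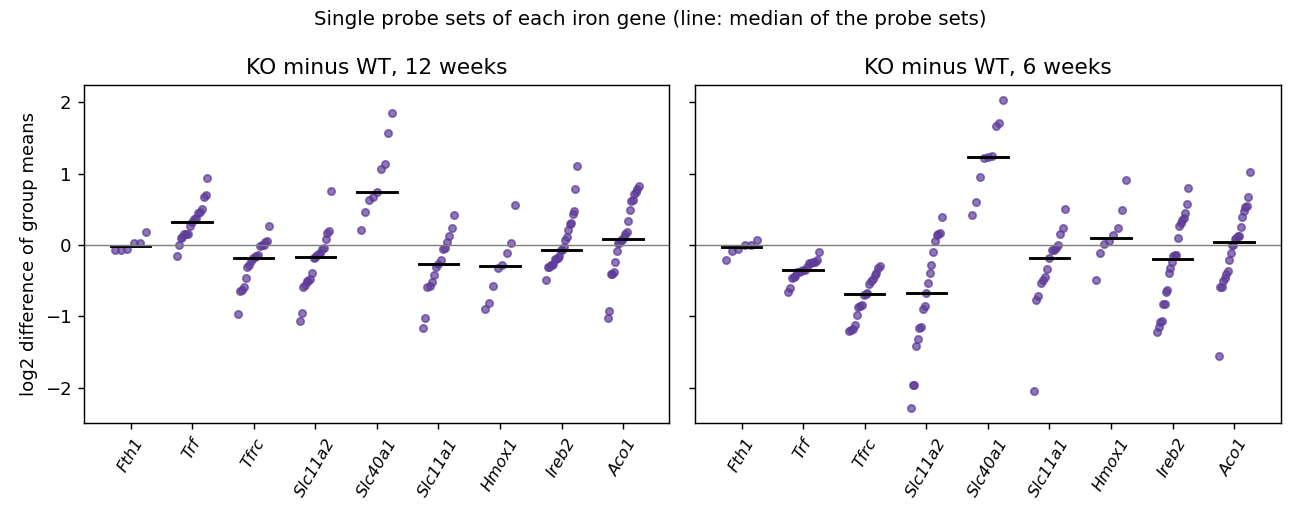
Difference of group means, KO minus WT in log2 units, for every probe set of each iron gene at 12 weeks and at 6 weeks, with a line at the median of the gene's probe sets. All 9 Slc40a1 probe sets lie above 0 at both stages, and all 18 Tfrc and 17 Trf probe sets lie below 0 at 6 weeks.

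Hmox1 encodes heme oxygenase, which opens heme and frees its iron. In KO at 12 weeks its lowest, median and highest arrays had 6.28, 6.75 and 7.49, and the WT arrays had 7.32, 7.70, 7.09, 7.14 and 7.80. Its 6-week arrays had 6.50, 7.68 and 6.00 in KO and 6.62, 6.26, 7.39 and 6.18 in WT. At 12 weeks 4 of 6 KO arrays lay below every WT array. The difference was −0.63 ± 0.29 at 12 weeks (95% interval −1.24 to −0.02, unadjusted p = 0.0433, adjusted p = 0.436), with 6 of 8 probe sets lower in KO. It was −0.30 with the mean of the probe sets and −0.33 with the brightest probe set. It was −0.80 among female and −0.49 among male arrays, and −0.66 and −0.63 in the first and second runs. In each of these splits KO and WT still differ in run or in sex. The 6-week difference was 0.11 ± 0.37 (adjusted p = 0.999), and it was −0.36 without KO replicate 2. Between stages, WT arrays were higher at 12 weeks by 0.80 ± 0.32 (unadjusted p = 0.0229, adjusted p = 0.512) and KO arrays differed by 0.05 ± 0.34 (adjusted p = 0.983), and the genotype effects at the 2 stages differed by −0.75 ± 0.47 (adjusted p = 0.956). The WT stage difference was 0.50 with the mean of the probe sets and 0.44 with the brightest. Without KO replicate 2 at 6 weeks the KO stage difference was 0.53 and the difference between the genotype effects −0.27.

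Ireb2 and Aco1 encode the iron regulatory proteins, which sense iron in the cytosol, and Aco1 is also an aconitase when it holds an iron-sulphur cluster. Ireb2 ran from 5.31 to 6.59 in KO at 12 weeks, 5.36 to 6.78 in WT at 12 weeks, 5.90 to 6.64 in KO at 6 weeks and 6.23 to 6.85 in WT at 6 weeks. Aco1 ran from 6.33 to 6.89 in KO at 12 weeks, 6.15 to 6.80 in WT at 12 weeks, 6.16 to 6.98 in KO at 6 weeks and 6.25 to 6.86 in WT at 6 weeks. Both overlapped in every comparison. The KO minus WT differences of Ireb2 were 0.08 ± 0.27 at 12 weeks and −0.32 ± 0.34 at 6 weeks, and those of Aco1 were 0.14 ± 0.17 and −0.01 ± 0.22, with adjusted p from 0.789 to 0.999. Of their 22 probe sets each, 13 of Ireb2 were lower and 15 of Aco1 higher in KO at 12 weeks, and 14 of Ireb2 were lower and 11 of Aco1 higher at 6 weeks.

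**Figure D4:**
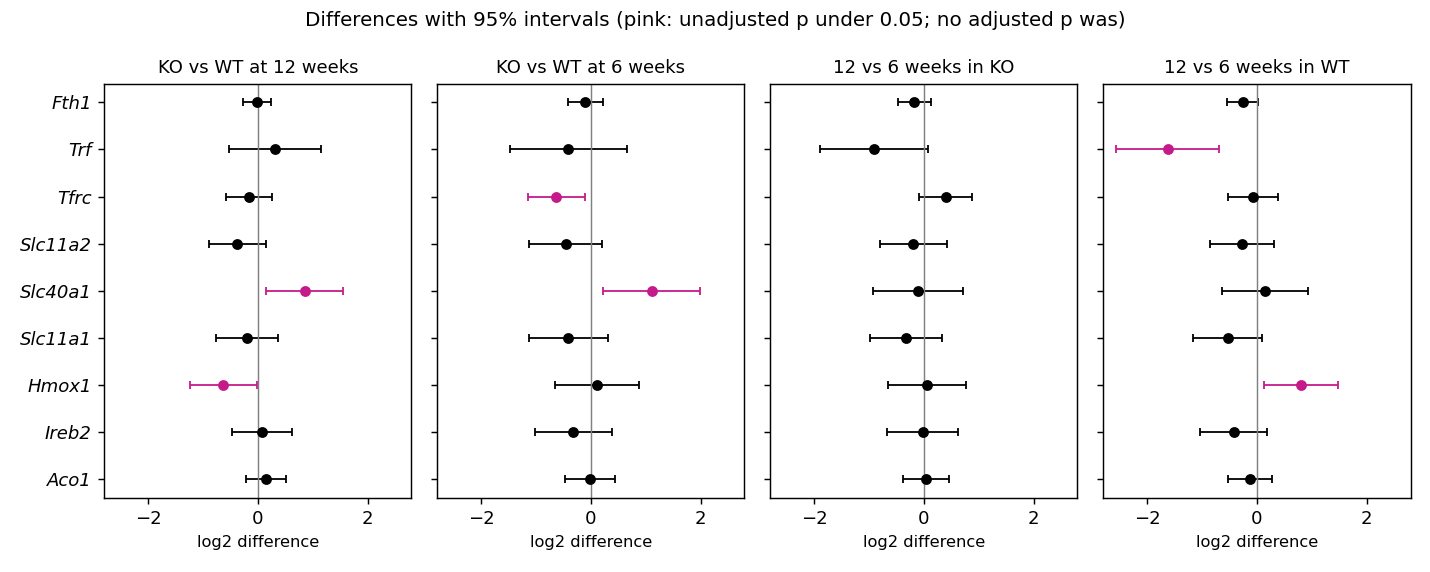
Log2 differences with 95% intervals for the 9 iron genes in the 2 genotype comparisons and the 2 stage comparisons, with unadjusted p under 0.05 in pink. The coloured points are Slc40a1 and Hmox1 at 12 weeks (0.85 and −0.63), Tfrc and Slc40a1 at 6 weeks (−0.63 and 1.11) and Trf and Hmox1 between stages in WT (−1.62 and 0.80).

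The genes whose values were most like each iron gene over the 18 arrays were named by the highest Pearson r, as a description. For Fth1 they were Mobp (r = 0.920) and Erbb3 (r = 0.913), and for Trf they were Tmem88b (r = 0.968) and Mag (r = 0.958). Mobp and Mag are also on the oligodendrocyte marker list. For Slc40a1 they were Camk1 (r = 0.853) and Psmb8 (r = 0.847), and for Slc11a1 they were Serpina3n (r = 0.870) and Rnf122 (r = 0.837). The other genes had Ust (r = 0.83) and Dmxl2 (r = 0.822) for Tfrc, Aldh4a1 (r = 0.828) and Acadsb (r = 0.772) for Hmox1, Ldc1 (r = 0.757) and Retreg3 (r = 0.750) for Slc11a2, Rars2 (r = 0.815) and Fancm (r = 0.781) for Ireb2, and Stoml2 and Cdk4 (both r = 0.782) for Aco1.

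Other genes of iron and heme biology were read from 5 lists. Of 21 tested genes of iron import, export and reduction, 12 were higher and 9 lower in KO at 12 weeks (median 0.12), and 8 were higher and 13 lower at 6 weeks (median −0.07). Of 19 tested genes of heme synthesis, transport and breakdown, 14 were higher and 5 lower in KO at 12 weeks (median 0.25), and 10 were higher and 9 lower at 6 weeks (median 0.11). Of 8 genes of iron sensing and ferritin handling, 4 were higher and 4 lower at 12 weeks (median 0.09), and 5 were higher and 3 lower at 6 weeks (median 0.02). Of 10 tested genes of iron-sulphur cluster assembly, 5 were higher and 5 lower at 12 weeks (median 0.00), and 3 were higher and 7 lower at 6 weeks (median −0.14). Of 12 genes of ferroptosis and NRF2 targets, 8 were higher and 4 lower at 12 weeks (median 0.22), and 9 were higher and 3 lower at 6 weeks (median 0.11). Only 1 of these genes passed the test in any comparison. It was Erfe at 12 weeks, which was lower in KO by this test, and the other lists had 0 genes that passed. Of all genes tested, 0.441% passed between KO and WT at 12 weeks.

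Erfe encodes erythroferrone, a hormone of erythroid cells that lowers hepcidin. Its KO arrays at 12 weeks had 4.00, 4.39, 4.33, 4.46, 4.17 and 4.24, against 4.97, 4.98, 5.28, 5.23 and 5.46 in WT, with no overlap. It fell by 0.92 ± 0.18 (limma adjusted p = 0.0323), and the difference rests on the median of its 9 probe sets, of which 1 differed by as much and the others ranged from −0.52 to 0.15. With the mean of the probe sets it was −0.32 (adjusted p = 0.281) and with the brightest 0.01 (adjusted p = 0.980). Leaving out single arrays ended the call in 9 of 18 cases, with adjusted p from 0.0522 to 0.0913, namely without KO replicates 1, 2, 3, 5 or 6 or WT replicates 1, 3, 4 or 5 at 12 weeks. Cp, the ferroxidase ceruloplasmin, differed by 0.78 ± 0.29, KO minus WT, at 12 weeks (adjusted p = 0.302) and by 0.81 ± 0.36 at 6 weeks (adjusted p = 0.853). Lcn2, which binds iron-laden siderophores, differed by −1.22 ± 0.56 at 6 weeks (adjusted p = 0.889). Of the heme genes with the smallest p, Blvra and Lrp1 differed by 0.53 and 0.37 at 12 weeks, and Alas1, which catalyses the opening step of heme synthesis, and Cpox differed by −0.54 and −0.69 at 6 weeks. Of the sensing genes, Epas1 and Fbxl5 differed by 0.52 and −0.40 at 12 weeks, and Pcbp1 and Epas1 by −0.18 and 0.18 at 6 weeks. Of the cluster assembly genes, Fdx1 and Nfs1 differed by 0.36 and −0.41 at 12 weeks, and Isca2 and Ciao1 by −0.68 and −0.46 at 6 weeks. Of the ferroptosis and NRF2 genes, Alox15 and Aifm2 differed by −0.63 and 0.49 at 12 weeks, and Aifm2 and Gclc by 0.55 and 0.43 at 6 weeks.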

How the data were processed

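The deposited values are log2 signals per probe set, 1 column for each of 18 arrays, as the authors made them. Labelling used an RNA amplification kit and biotin, per the labels' protocols, and their summary and normalisation method was not given in the sources used here. Values ran from 0.732 to 13.674 with medians per array between 5.26 and 5.41, and no further scaling was applied. GEO's platform annotation pairs 212097 of 241576 probe sets with 1 gene symbol, 4475 with several and 25004 with none, and 2688 old symbols were updated through RefSeq. A gene's value is the median of its single-symbol probe sets (median 8 per gene). The lowest 20% of genes by mean over all arrays, at or below 3.41, were left out.

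The 4 group means were fitted over all 18 arrays with limma 3.58.1 in R 4.3.3 (lmFit and eBayes, 14 residual and 5.6 prior degrees of freedom), two-sided, with Benjamini-Hochberg adjustment over 16324 genes at 0.05. The code was tested on simulated data. Differences are KO minus WT or 12 minus 6 weeks. Correlations used 100000 permutations, or exact ones for under 10 arrays. The iron genes, wider lists and marker lists were chosen with earlier results of these data known. The text names all 10 genes, wider-list genes that passed plus the 2 with the smallest p per genotype comparison and list, and the 2 genes most like each iron gene. Chosen after seeing the values were the fit without the 2 arrays of lowest weight, the fit of genotype by sex, the values within sex and run, the counts of groups without overlap for Fth1, and the correlations within genotype and stage. Other alternatives were probe set summaries, filters, quantile normalisation, array weights, only the arrays compared, a replicate block, sex as a covariate and leaving out each array. Promoter sequences are from RefSeq (GRCm38.p6). Python 3.11.15 with scipy 1.17.1 did the rest.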

Additional observations from a re-analysis of the deposited data

Results flagged for a closer look

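Among 30 groups of iron gene values tested for a sample far from the others, 1 was singled out, and chance alone marks about 1 in 20. Slc11a1 in WT at 6 weeks had 6.68 in replicate 3, against 5.43, 5.39 and 5.18 in the other WT arrays at that stage, and the gap to the nearest was 0.837 of the group's range. Without that array the KO minus WT difference of Slc11a1 at 6 weeks was −0.07, against −0.41 with it, and the 12 minus 6 weeks difference in WT was −0.20, against −0.53. Why this array was high was not tested.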

How the results depend on the processing

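The count of iron genes that passed was 0 in every comparison and under every alternative. Of 45 differences of the 9 genes, 17 changed sign in at least 1 alternative, in 59 of 1246 alternative values, and none of the values passed the test. Slc40a1 lay below the stricter filter of 40% and has no value there. The cause of the changes that follow was not tested.

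Of all genes, 72 passed between KO and WT at 12 weeks, and 191 did with array weights, 239 with only the arrays compared, and 217 without the 2 arrays of lowest weight. At 6 weeks 7 passed, and 0 with only the arrays compared. Between 12 and 6 weeks 1 passed in KO, against 3 with the mean of probe sets or the brightest one, and 0 with only the arrays compared or without the 2 arrays of lowest weight. In WT 3 passed, against 5 with the mean, 1 with the brightest, 1 with only the arrays compared and 7 with sex as a covariate. Leaving out 1 array gave 15 to 130 genes for KO against WT at 12 weeks, with 15 without WT replicate 3 or KO replicate 6 at 12 weeks and 130 without KO replicate 2 at 6 weeks. It gave 0 to 11 at 6 weeks, 1 to 5 for the stages in KO and 1 to 6 in WT.

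Same-numbered KO and WT arrays had correlations of their deviations from −0.359 to 0.241. The labels state no pairs, and these values alone cannot decide whether the numbers pair samples. With a replicate block, 20 genes passed at 12 weeks, 0 at 6 weeks, 2 between stages in KO and 0 in WT. Under the block Aco1 at 6 weeks was 0.022, Fth1 at 12 weeks 0.0069, Ireb2 between stages in KO 0.14 and Aco1 −0.0027, and Erfe at 12 weeks had −0.91 (limma adjusted p = 0.0904).

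Signs turned for Hmox1 at 6 weeks (−0.21 with array weights, −0.50 without the 2 arrays of lowest weight), Fth1 at 12 weeks (0.0057 with the mean) and Aco1 at 12 weeks (−0.081 with the brightest). Between stages in KO they turned for Slc11a1 (0.27 with the brightest, 0.066 without the 2 arrays), Aco1 (−0.25 with the brightest), Slc40a1 (0.17 with weights, 0.52 without the 2 arrays) and Ireb2 (0.035 with sex). Between stages in WT they turned for Slc40a1 (−0.014 with the mean, −0.017 without the 2 arrays) and Tfrc (0.070 with the brightest). For the difference between stages in the genotype effect they turned for Slc11a2 (−0.22 with the brightest, −0.11 without the 2 arrays), Aco1 (−0.074 with the brightest) and Slc40a1 (0.089 with weights, 0.54 without the 2 arrays). Erfe had 0.073 and 0.096 at 6 weeks with the mean and the brightest, 0.014 at 12 weeks with the brightest, 0.0064 between stages in KO without the 2 arrays and −0.20 in WT with the brightest.

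Leaving out 1 array turned the sign in these ranges. KO against WT gave Aco1 −0.20 to 0.21, Hmox1 −0.36 to 0.48, Trf −0.75 to 0.048 and Erfe −0.45 to 0.15 at 6 weeks, and Ireb2 −0.11 to 0.25 and Fth1 −0.042 to 0.0069 at 12 weeks. The stages in KO gave Hmox1 −0.31 to 0.53, Aco1 −0.18 to 0.23, Slc40a1 −0.52 to 0.52, Slc11a1 −0.65 to 0.066, Ireb2 −0.18 to 0.19 and Erfe −0.59 to 0.0064. The stages in WT gave Tfrc −0.22 to 0.038 and Slc40a1 −0.017 to 0.28. The difference between stages in the genotype effect gave Slc11a1 −0.13 to 0.60, Slc11a2 −0.19 to 0.35, Aco1 −0.061 to 0.35 and Slc40a1 −0.67 to 0.37.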
